A study of Ovis aries with 10 samples.

Results

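ISG15, MX1 and IRF1 are genes that interferons induce, and their levels were read in the left ventricular free wall of 10 fetal sheep near term. They were found by gene name, accession and description among the array's probes. They are 3 of 1023 genes named on the array, 639 of which were tested. Each was measured by 1 probe and 1 spot per array, among 15008 probes of which 10261 were tested. As a group they were chosen by measured values, with their levels, their covariation and their treatment differences overall and within slides in view, so these are given as descriptions. The ISG15 probe is listed in the files under an older name, ISG17, and was matched through its RefSeq accession. A further probe whose description holds the letters MX1 was left out, because there they name a strain of the choanoflagellate Monosiga brevicollis and not the gene.

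The study compared fetuses of ewes given extra cortisol with fetuses of ewes given vehicle. All were singletons. Cortisol (Solu-Cortef, 1 mg/kg/day) or vehicle was infused into the ewe, not the fetus, from about day 115 of pregnancy for about 25 days. Tissue was collected at 139 to 144 days, as soon as possible once labour had begun, so both groups had also been exposed to the start of labour. There were 7 ewes per treatment group, and the arrays hold left ventricle of 5 fetuses per group, 1 array per fetus. No strain and no sex of the fetuses was given in the labels used here. The descriptions of 9 of the 10 samples name a leg muscle, the biceps femoris, although their titles, source and tissue fields name the left ventricle. MYH7, TPM1 and CRYAB, all abundant in ventricular muscle, were well above background on all 10 arrays, but skeletal muscle also expresses them. Of the 6 skeletal muscle markers on the array, TNNC2 and PYGM stood well above background on all 10 arrays, MYOD1 on 6, and MYH1, MYH2 and MYF5 on 0, so these markers do not all point one way.

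Interferons are cytokines released when a cell senses a virus or other danger. Type I interferons bind the receptor made of IFNAR1 and IFNAR2, and STAT proteins then carry the signal to the nucleus and switch on a broad antiviral programme. ISG15 is a ubiquitin-like protein that becomes attached to other proteins in that programme. MX1 is a dynamin-like GTPase that blocks the replication of several RNA viruses. IRF1 is a transcription factor, induced most strongly by interferon gamma, which in turn switches on antigen presentation and other interferon targets. In ruminants ISG15 and MX1 are also well known for their rise in maternal tissues and blood during early pregnancy, in response to interferon tau from the conceptus.

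Each level rests on what hybridised to a single 60-base oligonucleotide. The probe sequences are given here because nothing else in the files identifies which stretch of each transcript was read. They are in lower case as the strand printed on the array, 5′ to 3′, with no base marked. ISG15 and IRF1 are shown whole and MX1 by its first 30 bases.
ISG15: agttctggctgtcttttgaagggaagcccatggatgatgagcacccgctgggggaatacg
MX1: tttgtgaatgcacacagaagcctattcctt
IRF1: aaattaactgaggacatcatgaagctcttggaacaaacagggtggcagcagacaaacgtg
The probes differ in base composition, with 55.0% G or C in ISG15, 35.0% in MX1 and 45.0% in IRF1. Amounts of RNA were therefore not compared between these probes, though the marker sums below do add the signal of different probes. Levels below are log2 of the spot intensity minus the log2 75th percentile of the same array. The level of ISG15, MX1 or IRF1 was compared only with that of the same gene in other fetuses.

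ISG15 differed several-fold between fetuses of the same group. Its level in controls 1 to 5 was -1.55, -0.68, -0.56, 1.21 and 0.58. With cortisol it was -1.0, 0.66, -0.50, 0.48 and -0.39 in replicates 1 to 5. Both the lowest and the highest fetus were controls, and every cortisol value lay between them. The distance from the lowest to the highest array was 2.76 on the log2 scale, a 6.79-fold span. Controls averaged -0.20 ± 1.09 (SD, n = 5) and cortisol fetuses -0.15 ± 0.70 (SD, n = 5), so the groups overlapped throughout.

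MX1 was likewise spread widely and in much the same fetuses. In controls 1 to 5 its level was -0.97, -0.33, -0.19, 1.48 and 0.48. In cortisol replicates 1 to 5 it was -0.42, 0.58, -0.25, 0.65 and -1.09. Control 4 was again the highest array, while the lowest was cortisol 5, which had been in the middle of the range for ISG15. The span was 2.56 on the log2 scale, or 5.91-fold, and controls averaged 0.09 ± 0.93 (SD, n = 5) and cortisol fetuses -0.10 ± 0.73 (SD, n = 5). The groups overlapped here too.

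IRF1 was a dim probe whose pattern over the fetuses was another one. Its level was -3.67, -4.60, -4.22, -3.16 and -3.71 in controls 1 to 5. In cortisol replicates 1 to 5 it was -3.91, -3.73, -2.38, -3.20 and -3.80. The highest fetus was cortisol 3, which stood apart from the other 9, and the lowest was control 2, the only array where the spot was not well above background. The span was 2.22 on the log2 scale, or 4.66-fold. Controls averaged -3.87 ± 0.55 (SD, n = 5) and cortisol fetuses -3.40 ± 0.63 (SD, n = 5), and 4 of 5 cortisol values lay above the control mean.

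**Figure D1:**
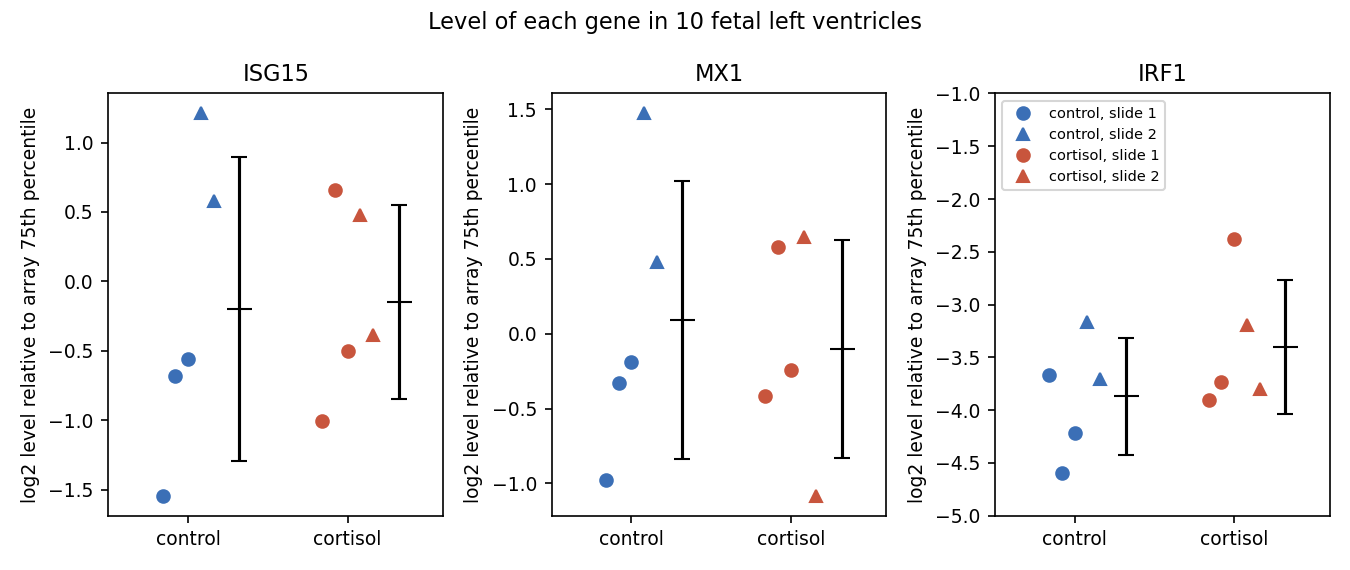
Level of ISG15, MX1 and IRF1 (log2 relative to the array's 75th percentile) in each of 5 control and 5 cortisol fetuses, with circles for slide 1, triangles for slide 2 and bars for the group mean ± SD. For ISG15 the cortisol points lie inside the control range, and for IRF1 cortisol replicate 3 stands above the others at -2.38.

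The 3 genes varied more between fetuses than most probes did. Over all 10 arrays the SD was 0.86 for ISG15, 0.79 for MX1 and 0.61 for IRF1, where the median tested probe had 0.27. These SDs were at percentiles 95.65, 94.64 and 90.53 of the probes tested, a description only, since the genes were picked with their variation already known. For noise between spots within an array, 19 other probes that lie in 5 spots each were used. They are not all of the probes with repeat spots, so the range may not hold for every probe. The SD between spots of one probe on one array had a median of 0.16 and ran from 0.06 to 0.31. It leaves out differences between arrays in labelling, hybridisation and slide, which 1 array per fetus cannot tell from differences between fetuses. No repeat spots exist for these 3 genes. ISG15 and MX1 were well above background on all 10 arrays, with spot intensities of 85.9 to 504 and 113 to 605 scanner units. IRF1 spots read 11.8 to 46.0 units with a Feature Extraction error of 2.26 to 5.12 units, so its values are the least precise. None of these spots was saturated or marked as irregular, and none lay in the area of lost signal found on cortisol replicate 4.

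With cortisol, ISG15 and MX1 had group means within 0.20 of those of the controls, less than the spread between fetuses, and the IRF1 mean was 0.47 above. Differences are cortisol minus control on the log2 scale with the standard error (SE) of limma, with p adjusted by Benjamini-Hochberg over all 10261 probes. None of the 3 genes passed the adjusted threshold of 0.05, in a comparison where 0% of all probes passed it. At an unadjusted p under 0.05, 0 of the 3 and 3.25% of all probes passed. For ISG15 the difference was 0.05 ± 0.51 (SE), a fold of 1.03. MX1 had -0.20 ± 0.46 (SE), a fold of 0.872. IRF1 had 0.47 ± 0.34 (SE), a fold of 1.38. Only for IRF1 did the estimate exceed its SE. The number of arrays limits what could be seen: from these SEs and 8 residual degrees of freedom, the 95% intervals of the fold reached from 0.459 to 2.33 for ISG15, 0.415 to 1.83 for MX1 and 0.809 to 2.36 for IRF1. The p-values of limma also use prior degrees of freedom, so intervals made in that way would be slightly narrower. A 2-fold rise lies inside the intervals for ISG15 and IRF1, a 2-fold fall inside those for ISG15 and MX1, and the p-values measure only the spread between these samples.

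The sign for ISG15 and MX1 hung on single fetuses. Leaving out control 1, 2 or 3, or cortisol 2 or 4, turned the ISG15 difference negative, and over all 10 such omissions it ran from -0.29 to 0.40. MX1 turned positive without control 4 or without cortisol 5, with a range of -0.47 to 0.15. IRF1 stayed positive, and its estimate was lowest, at 0.21, without cortisol replicate 3.

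The arrays lay on 2 slides, and the estimates differed in sign between them. Slide 1 held replicates 1 to 3 of both groups and slide 2 held replicates 4 and 5, each slide read in a scan run of its own. On slide 1 the cortisol mean was above the control mean for all 3 genes, with differences of 0.65 ± 0.45 (SE) for ISG15, 0.47 ± 0.32 for MX1 and 0.82 ± 0.43 for IRF1. On slide 2 the differences were -0.85 ± 0.41 for ISG15, -1.20 ± 0.70 for MX1 and -0.06 ± 0.34 for IRF1. None of the 3 passed the adjusted threshold in limma within either slide. The background was 0% of probes called on each slide, and 4.52% on slide 1 and 2.85% on slide 2 at an unadjusted p under 0.05.

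**Figure D2:**
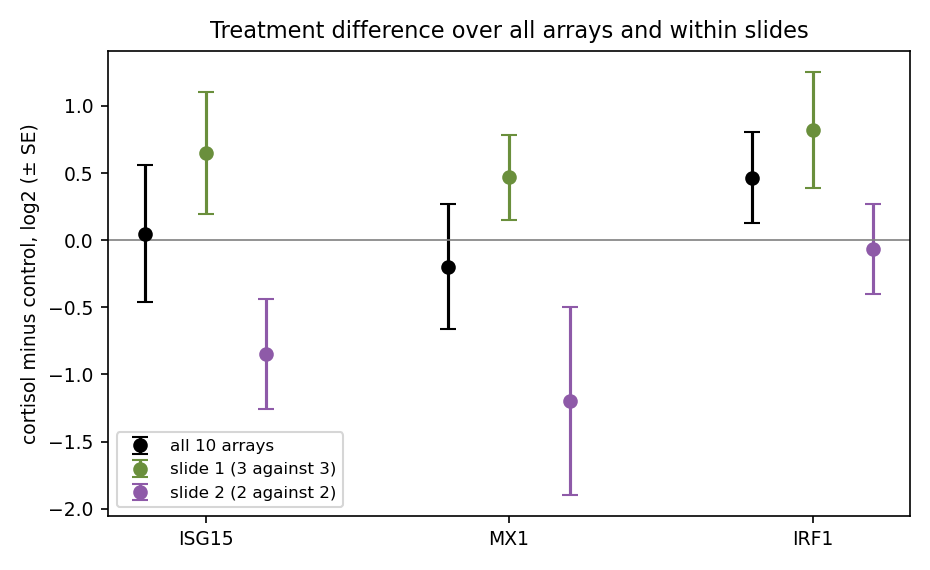
Cortisol minus control difference (log2, ± SE) of each gene over all 10 arrays (black), on slide 1 with 3 against 3 arrays (green) and on slide 2 with 2 against 2 (purple). ISG15 and MX1 lie above 0 on slide 1 and below 0 on slide 2, and IRF1 is at -0.06 on slide 2.

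The change of the treatment difference from slide 1 to slide 2 was fitted directly as an interaction. It was -1.50 ± 0.73 (SE) for ISG15, -1.66 ± 0.77 for MX1 and -0.89 ± 0.67 for IRF1. None of the 3 passed, and over all probes 0% passed the adjusted threshold and 5.1% an unadjusted p under 0.05. None of the 3 genes passed at that level either, so the opposite signs on the slides are not shown to differ. The slide 2 values rest on 2 fetuses per group, among them control 4, the highest array for both ISG15 and MX1.

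The 4 arrays of slide 2 had the higher mean of ISG15. It was 0.47 ± 0.66 (SD, n = 4) on slide 2 and -0.60 ± 0.73 (SD, n = 6) on slide 1, a difference of 1.08 ± 0.42 (SE) with treatment in the model. The control means on slides 1 and 2 were -0.93 and 0.90, and the cortisol means -0.28 and 0.05. For MX1 the slide difference was 0.64 ± 0.45 (SE) and for IRF1 it was 0.28 ± 0.35 (SE). None of the 3 passed the adjusted threshold in limma, where 0% of all probes did, and 9.1% of all probes passed an unadjusted p under 0.05, ISG15 among them.

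ISG15 and MX1 varied together across fetuses, while IRF1 did not follow them closely. Since this joint behaviour was part of how the genes were chosen, the correlations are a description. Arrays of the same slide share a scan run, and the genes of an array share its scaling factor. Over 10 arrays ISG15 and MX1 had a Pearson r of 0.897 and a Spearman rho of 0.770. ISG15 with IRF1 had an r of 0.298 and a rho of 0.418, and MX1 with IRF1 an r of 0.305 and a rho of 0.418. Without the 2 arrays farthest from the median, r was 0.797 for ISG15 with MX1, 0.236 for ISG15 with IRF1 and 0.163 for MX1 with IRF1.

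The tie between ISG15 and MX1 was also there within a slide and after group and slide means were taken out. On the 6 arrays of slide 1, r was 0.991 for ISG15 with MX1, against 0.070 for ISG15 with IRF1 and 0.012 for MX1 with IRF1. For deviations from the mean of the same group on the same slide, r was 0.877 for ISG15 with MX1, and on slide 2 the paired deviations mirror each other because each mean is of 2 arrays. Cortisol replicate 5 departed most, with MX1 at -1.08 from its own mean over the 10 arrays and ISG15 at -0.21 from its own. Without that array the r of ISG15 with MX1 was 0.979, and without control 4, the highest array, it was 0.846. The r of ISG15 with IRF1 was 0.571 without cortisol replicate 3, the array with the IRF1 peak.

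**Figure D3:**
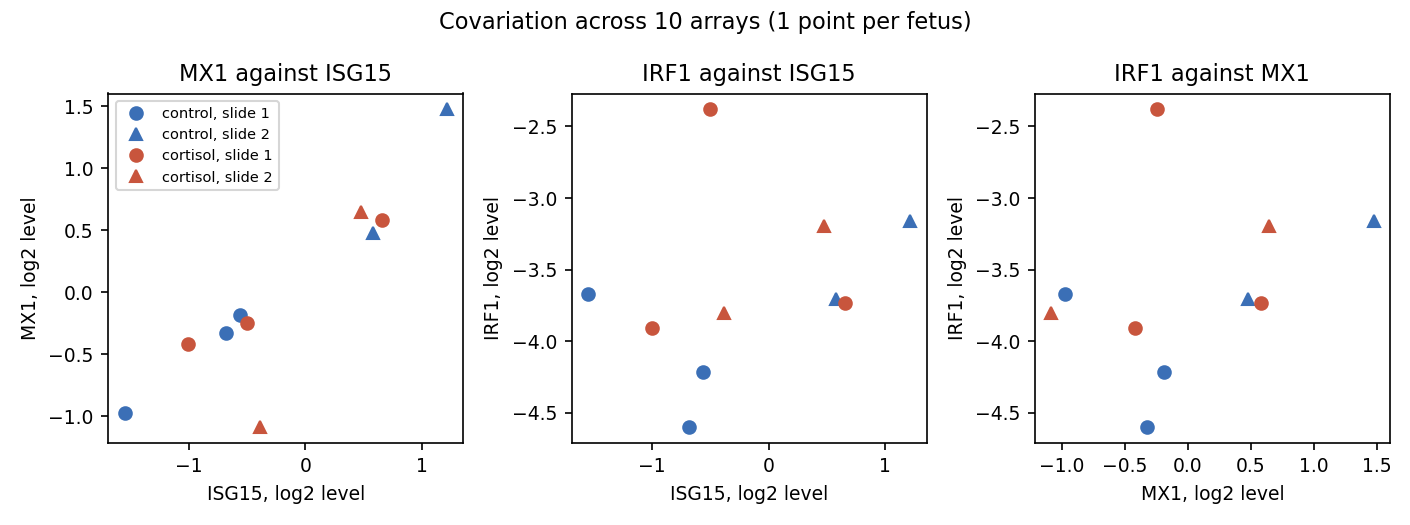
Log2 level of one gene against another, 1 point per fetus, for MX1 against ISG15, IRF1 against ISG15 and IRF1 against MX1, with colours for the groups and shapes for the slides. MX1 and ISG15 lie along a line with cortisol replicate 5 below it, and IRF1 shows cortisol replicate 3 apart at -2.38.

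Few genes of the wider interferon pathway could be matched to a probe by name, and none of those tested passed. Of 160 names in 5 lists, 24 had a probe of that name and 14 such a probe that was tested. Only 1658 of the 15008 probes had a gene name, so genes read by unnamed probes were not counted. The same holds for every count of listed genes on the array, also those of cell type markers. Of the 14, 0 passed the adjusted threshold and 0 had an unadjusted p under 0.05 in limma, where the background over all probes was 0% and 3.25%. The cortisol mean was above the control mean for 12 of the 14 and below it for 2, with a median difference of 0.11. Among all 10261 probes 5010 were above and 5251 below, with a median of -0.00. On slide 1, 13 of 14 were above, with a median of 0.33, beside 4876 of 10254 probes and a median of -0.01. On slide 2, 6 of 14 were above, with a median of -0.10, beside 5414 of 10216 probes and a median of 0.02. Whether the split of these genes differs between slides was not tested. Under quantile normalisation, median scaling and the authors' values it was again 12 of 14, under normexp background correction 14 of 14 beside 6849 of 10261 probes, and with one array left out 10 to 13, lowest without control replicate 2.

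Of the ligands, neither IFNA (well above background on 0 of 10 arrays) nor IFNG (1 of 10) was measurable in the ventricle. Both chains of the type I interferon receptor were. IFNAR1 had a difference of 0.07 ± 0.13 (SE). IFNAR2, the chain that binds interferon most tightly, was at -0.80, -0.84, -0.65, -0.58 and -0.49 in controls 1 to 5 and at -0.46, -0.38, -0.33, -0.19 and -0.76 in cortisol replicates 1 to 5. Of the cortisol arrays 4 lay above every control and replicate 5 lay among the controls. Its difference was 0.25 ± 0.13 (SE), with limma's adjusted p at 0.990. The unadjusted p in limma, 0.0747, was the lowest of the 14 pathway genes. How many of all probes show such a separation was not counted. IFNAR2 has 2 probes on the array, and its brightest tested one is given.

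Of the signal carriers and regulators, 2 genes are given, both relatives of IRF1. IRF2, which competes with IRF1 for the same DNA sites, had a difference of 0.12 ± 0.13 (SE), with an r of 0.544 with ISG15. IRF3, which turns on interferon genes after viral RNA is sensed, had -0.07 ± 0.16 (SE) and an r of -0.06 with ISG15.

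The sensors were mostly at background. TLR2, TLR7, TLR8, TLR9 and TLR10 were well above background on 0 of 10 arrays, MYD88 on 1 and TLR4 on 2. TLR3, the endosomal receptor for double-stranded RNA, had a difference of 0.10 ± 0.18 (SE). TRAF3, an adaptor on the path to interferon production, had 0.44 ± 0.25 (SE) and an r of -0.19 with ISG15.

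MX2, the relative of MX1 and the only other antiviral effector of its list with a named probe, was highest in the same fetus as ISG15 and MX1. Its level was -3.03, -2.19, -2.33, -0.75 and -2.91 in controls 1 to 5 and -2.41, -2.35, -2.02, -1.23 and -2.79 in cortisol replicates 1 to 5. Control 4 was the highest array and cortisol 4 the next, and control 5, which was high for ISG15, was low for MX2. The difference between the groups was 0.08 ± 0.43 (SE), and r was 0.607 with ISG15 and 0.748 with MX1.

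Genes of antigen presentation and other interferon-gamma targets were measured by 7 tested genes of 8 on the array, 6 with a higher and 1 with a lower cortisol mean. B2M, the light chain of MHC class I, had a difference of 0.32 ± 0.19 (SE). OVAR, a class I heavy chain, had 0.25 ± 0.29 (SE), and PSME2, a proteasome activator subunit, 0.09 ± 0.11 (SE). CTSS, the protease cathepsin S that prepares class II molecules for peptide loading, had 0.14 ± 0.28 (SE). CTSS had an r of 0.740 with ISG15 and 0.738 with MX1, whereas B2M had -0.12 and -0.01. The other tested members were PSMB8, ICAM1 and NOS2, and CXCL10, a chemokine that interferon gamma induces, was well above background on 4 of 10 arrays.

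**Figure D4:**
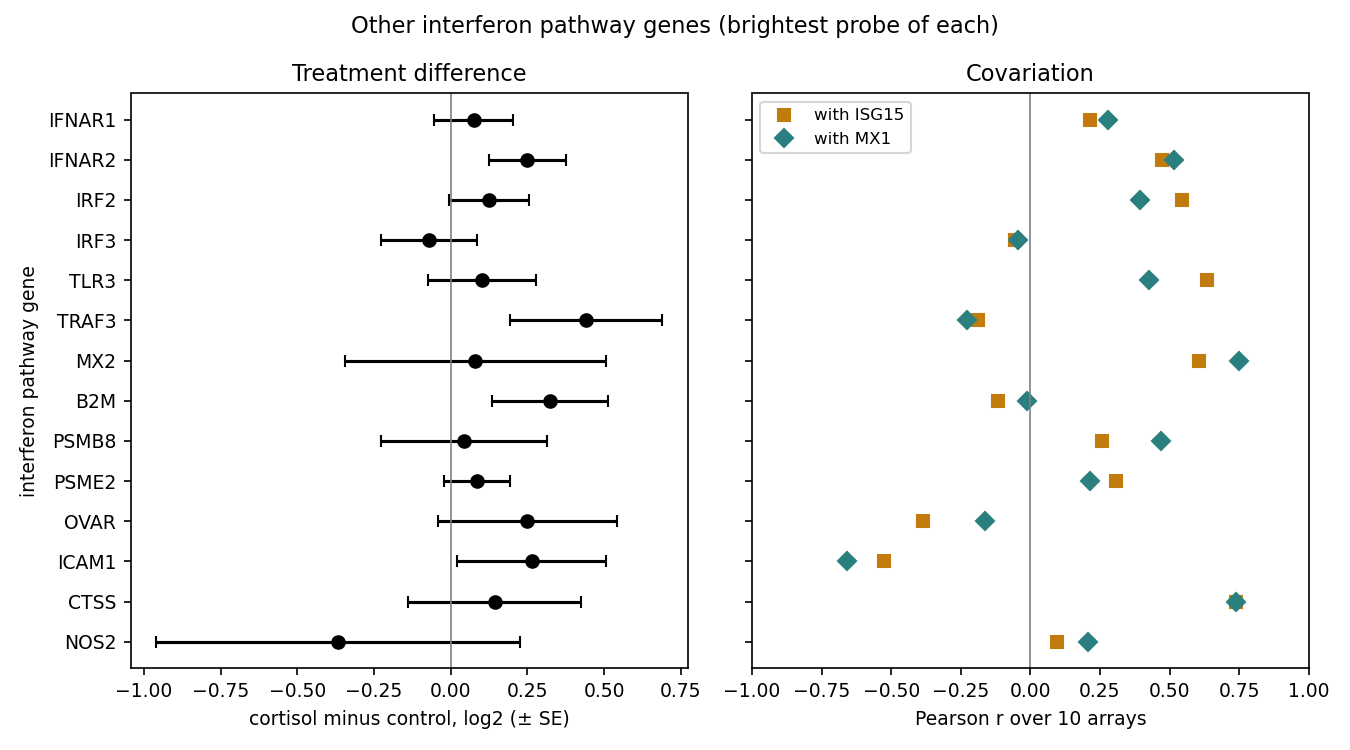
Left, cortisol minus control difference (log2, ± SE) of the 14 tested interferon pathway genes other than ISG15, MX1 and IRF1; right, Pearson r of each with ISG15 (squares) and MX1 (diamonds) over 10 arrays. The r values run from negative for ICAM1 to 0.740 for CTSS with ISG15 and 0.748 for MX2 with MX1.

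Over the 14 tested list genes, of which only MX2 is from the list of interferon-stimulated effectors, the covariation with ISG15 was modest. RTP4 and the interferon-induced protein 1-8U probe, described below, lie outside the lists and had an r of 0.933 and 0.807 with ISG15. RTP4 was picked for its high r with ISG15, and the 1-8U probe after its description was seen. Their r values are therefore descriptions and cannot be weighed against those of the lists. The median r of the 14 genes was 0.24 with ISG15 and 0.25 with MX1, beside 0.02 and 0.04 over all tested probes, and 0 of the 14 reached 0.8 with ISG15. Among the 9363 other probes with a value on every array, 105 (1.12%) reached an r of 0.8 with ISG15, 132 (1.41%) with MX1 and 17 (0.182%) with IRF1. MX1 was in place 13 of that order for ISG15, and ISG15 in place 14 for MX1. IRF1 was in place 2554 for ISG15 and 2594 for MX1.

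The named genes most like ISG15 and MX1, apart from each other, were RTP4, DCN, FTH1, SRI, COL3A1, CD93 and GNG11. RTP4, a receptor transporter protein that interferons induce, had an r of 0.933 with ISG15 and 0.806 with MX1. Its level was -0.78, -0.54, -0.80, 1.08 and 0.42 in controls 1 to 5 and -0.34, 0.70, -0.31, 0.44 and 0.06 in cortisol replicates 1 to 5. The fetuses high for RTP4 were thus those high for ISG15, with control 4 at the top. After group and slide means were taken out, r of RTP4 was 0.851 with ISG15 and 0.763 with MX1. Decorin (DCN), a small proteoglycan that binds collagen, had an r of 0.940 with ISG15 and 0.958 with MX1, the highest of all probes for MX1. DCN varied far less, from 4.41 in control 1 to 5.22 in control 4, and its second probe had an r of 0.885 and 0.895. After group and slide means were taken out, r of DCN was 0.9225 with ISG15 and 0.976 with MX1, both above those of RTP4. For COL3A1 it was 0.737 and 0.934, so a high r that remained was not particular to interferon-induced genes. Next for ISG15 after DCN, RTP4 and MX1 came FTH1, the ferritin heavy chain, at 0.886 and SRI, the calcium-binding protein sorcin, at 0.885. For MX1 the genes after DCN and ISG15 were COL3A1, a collagen III chain, at 0.856, CD93, found on endothelium, at 0.816 and the G protein subunit GNG11 at 0.812.

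One more probe without a gene symbol, described as interferon-induced protein 1-8U, a name from the interferon-induced transmembrane family, was examined after its description was seen. Its level was lowest in control 1, at 3.89, and highest in control 4, at 5.10. It had an r of 0.807 with ISG15 and 0.880 with MX1, and its cortisol difference was -0.01 ± 0.21 (SE). With group and slide means taken out, its r was lower, at 0.5975 with ISG15 and 0.781 with MX1.

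**Figure D5:**
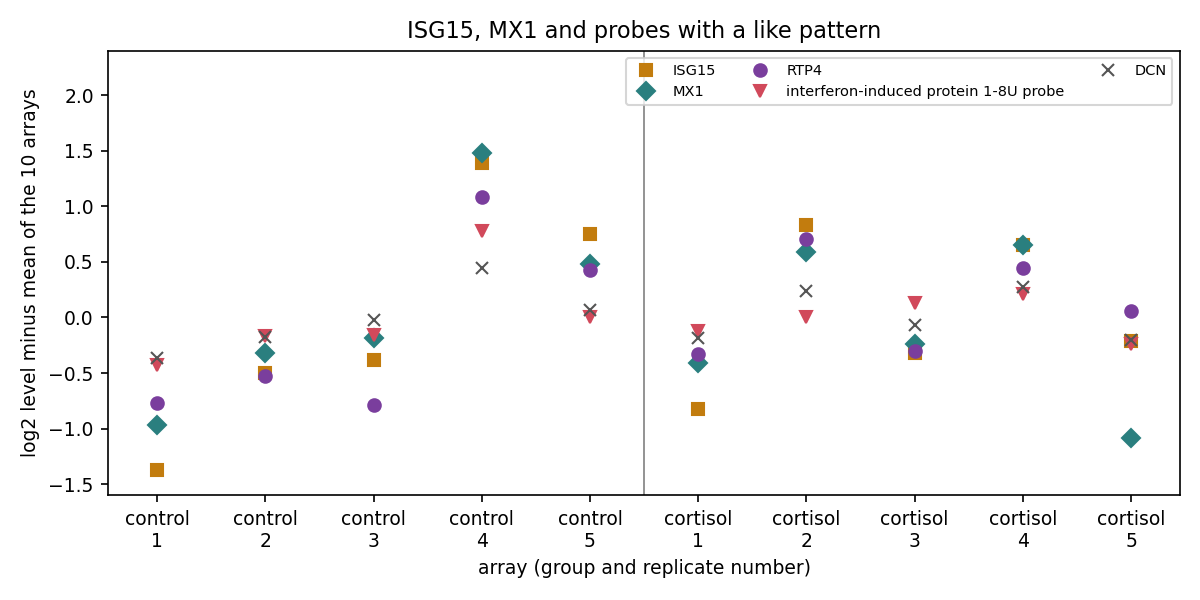
Log2 level minus the mean of the 10 arrays for ISG15, MX1, RTP4, the interferon-induced protein 1-8U probe and DCN in each fetus. All 5 are highest in control 4, and all are below their mean in controls 1 to 3. In cortisol replicate 5 all but RTP4 are below their mean, MX1 by the most.

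The named genes most like IRF1 were others. SERPINF1, a secreted serpin, had an r of 0.898 with it over 10 arrays and FLAP, the activator of 5-lipoxygenase in leukocytes, 0.828. OVAR-DQA1, an MHC class II chain, had 0.80, ITGB2, the leukocyte integrin beta chain, 0.785, and B2M 0.784. Cortisol replicate 3, the array with the highest IRF1, was also the highest for each of these 5 genes, at -2.24 for SERPINF1, -2.22 for FLAP, -0.30 for OVAR-DQA1, -1.97 for ITGB2 and 5.25 for B2M. ISG15 and MX1 were not high there, at -0.50 and -0.25.

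In bulk tissue a change in the share of a cell type and a change of RNA per cell cannot be told apart. Markers of cell types were therefore set beside the levels of ISG15 and MX1, but not beside those of IRF1. Each sum adds the linear levels of a list's tested genes, so it mostly follows the brightest probe, and the r of single genes is given with it. The sum of 3 fibroblast markers ran from 47.4 to 81.4 in controls and 50.9 to 73.3 with cortisol, and its r over 10 arrays was 0.886 with ISG15 and 0.911 with MX1. DCN made up 91.0% to 94.6% of that sum, so this nearly restates its own r. All 3 genes had an r above 0, from 0.661 to 0.885 with ISG15 and from 0.785 to 0.895 with MX1, and DCN and COL3A1 are also among the most similar genes.

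For endothelium, 5 of 6 genes on the array were tested, and their sum ran from 6.90 to 11.2 in controls and 8.03 to 9.43 with cortisol. Its r was 0.703 with ISG15 and 0.618 with MX1, and PECAM1 made up 69.1% to 82.2% of it. Single endothelial genes were split, with an r from -0.19 to 0.60 with ISG15, of which 3 of 5 were above 0, and from -0.48 to 0.58 with MX1, of which 4 of 5 were above 0. Both red cell genes on the array, HBB and AHSP, were tested, with a sum of 9.08 to 67.2 in controls and 3.97 to 96.3 with cortisol that was at least 99.6% HBB. The red cell sum had an r of 0.726 with ISG15 and 0.454 with MX1.

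Leukocyte markers were at low levels, with 4 of 7 tested, a sum of 0.235 to 0.760 in controls and 0.265 to 0.610 with cortisol, and CD4 and ITGAM at background on all arrays. Their sum had an r of 0.556 with ISG15 and 0.479 with MX1, and 3 of 4 genes had an r above 0 with each. The sums of cardiac muscle (3 of 3 tested), fat cell (5 of 5), smooth muscle (2 of 2) and skeletal muscle (3 of 6) genes had an r with ISG15 of -0.48, -0.53, -0.31 and -0.35. With MX1 the r of these sums was -0.35, -0.43, -0.20 and -0.08. The r of their single genes with ISG15 ran from -0.46 to 0.09 for cardiac muscle and -0.58 to 0.16 for fat cells. It ran from -0.27 to 0.09 for smooth muscle and -0.36 to -0.07 for skeletal muscle. The fat cell sum was 71.5% to 94.6% LPL.

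The 75th percentile of spot intensity, 177 to 286 scanner units over the arrays, had an r of -0.47 with ISG15, -0.48 with MX1 and -0.36 with IRF1. The level is defined by subtracting this percentile, so a negative r is partly built in. The number of spots not found per array had an r of 0.373 with ISG15, 0.556 with MX1 and 0.147 with IRF1. The part of cell makeup, array brightness and lost spots in the levels of these genes was not tested.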

How the data were processed

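Total RNA of 10 fetal left ventricles was labelled with Cy3 and read on 1-colour Agilent sheep arrays. Per the submitters' processing notes, the scanned images were quantified in Agilent Feature Extraction 10.1.1.1. The deposited intensity of each spot was background-subtracted and detrended, per the file headers, and not scaled between arrays. The authors' deposited value table holds log2 values, as judged from their range (array medians 5.77 to 5.79). It ranks spots as median intensity minus local background does, with genes not centred, and how it was made is not given in the sources used. Its 75th percentile was 7.91 on every array, so its arrays had been brought to a common scale.

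The level used was the log2 processed intensity less the 75th percentile of the array. Of 15744 spots, 536 controls and those marked non-uniform, outlying or not found were left out, and spots of a probe were averaged. Between 63.5% and 73.2% of spots were well above background, and 0 were saturated. Probes well above background on at least 5 of 10 arrays were tested, 10261 of 15008 (1504 missing values). limma 3.58.1 in R 4.3.3 (lmFit, eBayes, two-sided) was tested on simulated data and run on all of them, with Benjamini-Hochberg adjustment and a threshold of 0.05. Of all probes 1658 had a gene name: 721 by RefSeq accession, 510 by symbol, 125 by gene identifier, 20 by synonym, 12 by hand and 270 as in the files.

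The genes described, the 5 interferon lists and the 8 cell type lists were chosen with earlier results of these data known, so values for ISG15, MX1 and IRF1 are descriptions. Lists follow known roles, and 2 of their genes are not reported here. The brightest tested probe stood for a gene, up to 4 genes of highest mean level per interferon list have values, and the 5 named genes of highest r were given for likeness. Only genes that define a tissue or are at background were to be named from cell type lists, and the brightest gene of a sum and 3 further skeletal muscle genes were named after their values were seen. The alternatives tried were normexp (offset 50), quantile and median scaling, the authors' values, other filters, flags kept, slide or replicate number as a block, each slide, another variance model, an area of lost signal on cortisol replicate 4 (1277 spots) left out, and each array left out. No genome was used, so no coordinates are given.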

Additional observations from a re-analysis of the deposited data

Results flagged for a closer look

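NOS2, the inducible nitric oxide synthase that interferon gamma can switch on, had 1 control far from the others. Its level in control 2 was -5.68, where the other 4 controls lay between -3.79 and -3.36. The gap to the nearest control was 0.817 of the group's whole range. With cortisol, replicates 3, 4 and 5 were also low, at -5.37, -5.60 and -4.87, while replicates 1 and 2 were at -2.94 and -3.37. NOS2 was well above background on 6 of 10 arrays. Of 36 groups of 5 arrays examined for such a gap, 1 had one, and chance gives about 1 in 20, so this is no more than chance gives. ISG15, MX1 and IRF1 had none in either group.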

How the results depend on the processing

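The number of probes called by limma was 0 under all 23 alternatives run, with 333 probes at an unadjusted p under 0.05 in the settings reported and 852 under normexp. Of the interferon pathway genes 0 were called under those alternatives. The differences of ISG15, MX1 and IRF1 did not pass the adjusted threshold under any alternative run, and their signs moved. On slide 1 alone MX1 had 0.47. On slide 2 alone ISG15 had -0.85 and IRF1 -0.065. Leaving out one array at a time gave -0.29 to 0.40 for ISG15, -0.47 to 0.15 for MX1 and 0.21 to 0.64 for IRF1. In those fits ISG15 was -0.29, -0.07 and -0.04 without controls 1, 2 and 3, and -0.15 and -0.11 without cortisol 2 and 4. MX1 was 0.15 without control 4 and 0.05 without cortisol 5. The causes were not tested. The r of ISG15 with MX1 ran from 0.846 to 0.979 when one array was left out, the latter without cortisol 5, and was 0.940 under normexp and 0.914 in the authors' values. The r of ISG15 with IRF1 ran from 0.180 to 0.571 and that of MX1 with IRF1 from 0.173 to 0.553, and both were -0.04 in the authors' values. Under normexp the IRF1 difference was 0.30 ± 0.12 (SE), which passed an unadjusted p under 0.05 in limma (0.0275) but not the adjusted one (0.585). IRF1 was not tested where all 10 arrays had to be well above background. The labels do not say that a replicate number pairs fetuses, and not every same-number pair deviated together: correlations were 0.222, -0.01, 0.152, 0.190 and 0.022, over 0.1 in 3 of 5, and numbers 1, 3 and 4 correlated best with their own number. Arrays of the same number also share a slide, and slide means were not taken out, so these correlations cannot tell pairing from slide. Same-number fetuses were not treated as pairs. With that number as a replicate block 0 probes were called (397 unadjusted), and ISG15 had 0.05 ± 0.34 (SE), MX1 -0.20 ± 0.36 and IRF1 0.47 ± 0.32. Calls on slides were 0 in each alternative run.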

Other observations

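Probes whose descriptions name MHC molecules, which interferons induce, had a median r with ISG15 below 0 for class I and above 0 for class II. These groups were formed from the description text after the files were seen. All 15 class I probes were tested, with a cortisol mean above the control mean for 12 and below it for 3, 0 called and a median difference of 0.15, where 0% of all 10261 probes were called, 5010 were above and the median was -0.00. Their differences ran from -0.72 to 1.75. Class I genes form a polymorphic family with near-identical copies, so these probes can share transcripts and can differ between fetuses by allele. Their median r over 10 arrays was -0.21 with ISG15 and -0.06 with MX1. Of 8 class II probes 7 were tested, 4 with a higher and 3 with a lower cortisol mean, 0 called and a median difference of 0.15, read against the same background. Their median r was 0.42 with ISG15 and 0.31 with MX1.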
